A study of Mus musculus with 20 samples.

Results

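Gene expression in the prefrontal cortex of saline-injected mice was set against that in the hippocampus of saline-treated mice, using 10 of the 20 poly(A)-selected RNA sequencing libraries of a study of lipopolysaccharide and nicotine. The members were every library whose count column was named as saline: 4 from prefrontal cortex (1L, 3L, 6L and 8L) and 6 from hippocampus (1N to 6N), each described as a separate biological replicate. Every animal was wild type and of the inbred C57/BL6 background, at an age of 2 to 6 months. The prefrontal animals were males that had received 0.9% saline into the peritoneal cavity, and the hippocampal animals, whose sex and injection route the labels do not state, had received 0.9% saline. Both tissues were taken 24 hours later. No library whose count column named a treatment entered the comparison, although other labels of 6L and 8L named lipopolysaccharide.

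The hippocampus is built around a relay of excitatory neurons, from the granule cells of the dentate gyrus through mossy fibres to CA3 and on to CA1. Each of these cell groups is known for a small set of marker genes. The neocortex, of which the prefrontal cortex is the frontal part, is layered, with intratelencephalic neurons concentrated in the upper layers and neurons projecting to thalamus, brainstem and spinal cord in the deep layers. In the mouse, the frontal cortex lies close to the olfactory bulb in front and the striatum below, and the hippocampus borders the choroid plexus, the tissue that secretes cerebrospinal fluid into the ventricles.

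Region could not be separated from batch, as the labels number it, or from count table, because the prefrontal libraries formed batch 1 with a table listed by gene symbol and the hippocampal libraries formed batch 2 with a table listed by Ensembl identifier. Only large differences were therefore called, defined as an adjusted p below 0.05 with at least a 4-fold difference, and each p-value reflects how much these libraries varied. Total counts per library were 36371084 to 46106526 in prefrontal cortex and 51969343 to 68196280 in hippocampus. Levels are given as CPM, read counts scaled to library size by the TMM method, prefrontal values always in the order 1L, 3L, 6L and 8L, and log2 fold changes as prefrontal cortex minus hippocampus, so that negative values are higher in hippocampus. The titles and treatment labels of 6L and 8L named lipopolysaccharide whereas their column names named saline. The reverse held for prefrontal libraries 2L and 4L, whose titles named saline and whose column names named lipopolysaccharide, and these were left out. Y-linked transcripts such as Ddx3y were present in all 10 libraries (39.5 to 56.4 CPM), and Xist reached at most 0.136 CPM. The 20 housekeeping genes examined had log2 fold changes between -0.39 and 0.42, with 0 called by edgeR, DESeq2 or limma-voom and 7 at an unadjusted p below 0.05.

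Of 18400 genes tested, 579 were called higher in prefrontal cortex (3.15% of those tested) and 620 higher in hippocampus (3.37%). A further reading without the size limit gave 9614 genes with an adjusted p below 0.05 (52.2%), and the median log2 fold change over all tested genes was -0.02. The groups' ranges did not overlap for 7202 genes (39.1%). The shares of 3.15%, 3.37% and 39.1% are the background for the counts of list members that follow. With prefrontal libraries 1L and 3L alone, whose labels agree, 623 genes were called higher in prefrontal cortex and 773 higher in hippocampus, and 1070 of the 1199 calls were the same genes in the same direction. Of the called genes named here, 13 lost the call in that fit, namely Otof, Six3, Cartpt, Crh, Avp, Dlx6, Egr2, Timp1, Chrna1 (log2 fold change -1.92), Cldn2, Folr1, F5 and Slc4a5. Lcn2 (3.05), Adora2a (3.46), Gpr6 (2.44), Gabra6 (-5.00 by the fit), Htr4 (-4.08), Ak7 (-4.54), Ccdc153 (-4.88) and Gng10 kept it with a value moved by over 1.5 times, and Fos, which was not called, stood at 0.772.

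**Figure D1:**
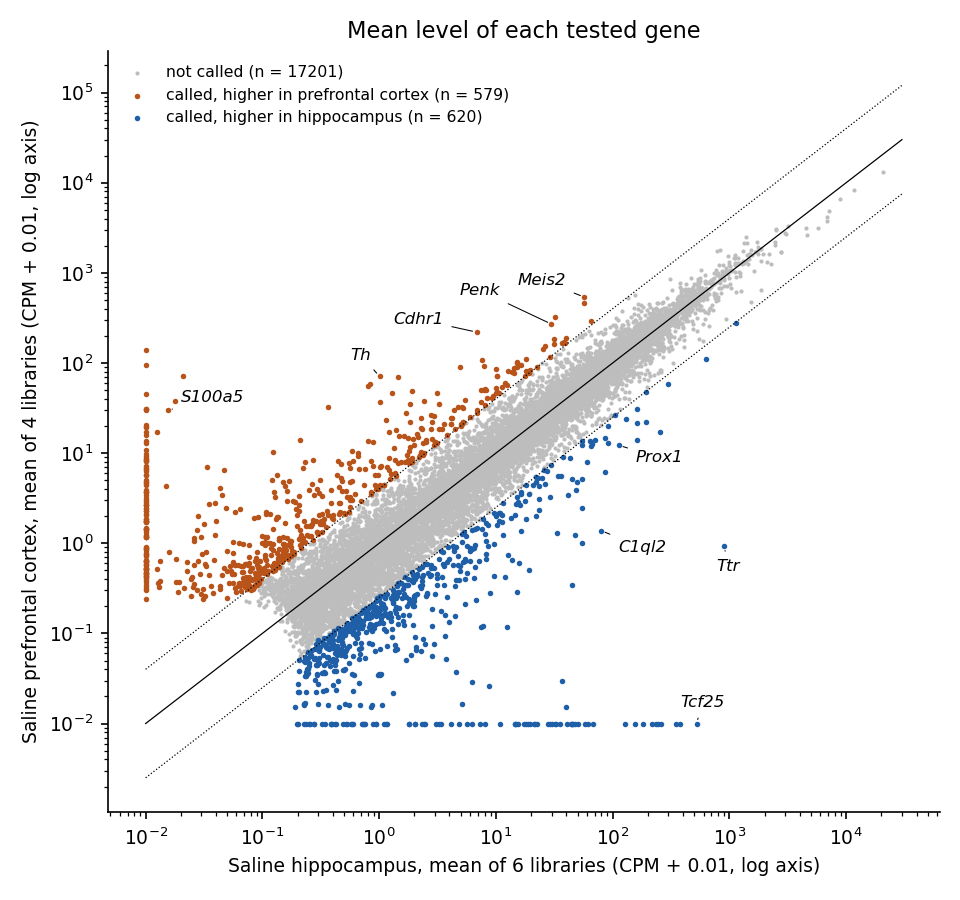
Mean level of each of the 18400 tested genes in saline hippocampus (x axis, 6 libraries) and saline prefrontal cortex (y axis, 4 libraries), in TMM-normalised CPM plus 0.01 on log axes. The solid line marks equal levels and the dotted lines a 4-fold difference; the 579 orange genes were called higher in prefrontal cortex and the 620 blue genes higher in hippocampus, and the row and column of points at 0.01 are genes with 0 counts in every library of one tissue.

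The largest fitted differences were of genes listed at 0 in one of the count tables. The 15 genes with the largest fitted excess in hippocampus (Tcf25, Cox4i1, Jph3, Cpne7, Tubb3, Rpl13, Map1lc3b, Gse1, Rusc1, Galnt2, Usp10, Oxsr1, Per3, Banp and Zc3h18) were each listed at 0 in all 4 prefrontal libraries. They include widely expressed genes, among them the cytochrome c oxidase subunit Cox4i1 (375 CPM in hippocampus) and the ribosomal protein Rpl13 (233 CPM), so no fold is given. In all, 52 genes above 1 CPM in every hippocampal library were listed at 0 in the prefrontal libraries, and 36 of them lay within chr8:119910360-124345724 (mm10). That interval held 149 joined genes, of which 64 exceeded 1 CPM in every hippocampal library and 26 exceeded it in all 10. The nearest genes outside the interval above 1 CPM in every prefrontal library were Klhl36 (7.13 CPM in prefrontal cortex and 5.70 in hippocampus) and Pgbd5 (186 and 240 CPM). Of these 52 genes, 46 were protein-coding. In the other direction 60 genes were listed at 0 in hippocampus, most of them pseudogenes and only 5 protein-coding, among the latter Cyhr1 (138 CPM in prefrontal cortex), Zrsr1 (95.4 CPM) and Osgepl1 (6.60 CPM). Other genes were near 0 in one table: the complex I subunit Ndufb8 had 11552 counts in prefrontal cortex and 4 in hippocampus, and Gng10, which shares 72.0% of its exonic bases with other genes, had 1 and 13708. Whether these differences came from the animals or the tables cannot be told apart. Among the 1199 called genes, 85 had 0 prefrontal counts and 108 had 0 hippocampal counts.

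Several dentate gyrus markers had a large hippocampal excess that did not rest on zeros. C1ql2, a secreted C1q-like protein of mossy fibre synapses at chr1:120340582-120343174, stood at 1.30, 1.74, 1.81 and 0.615 CPM in prefrontal cortex and between 66.5 and 102 CPM (median 76.5) in hippocampus. The lowest hippocampal library was far above the highest prefrontal one, and the log2 fold change was -5.86 (SE 0.23, adjusted p 5.3e-10), a 58.1-fold difference. Prox1, the transcription factor that sets granule cell identity (chr1:190118035-190170714), was at 11.8, 13.2, 11.0 and 12.7 CPM in prefrontal cortex and at 90.3 to 132 CPM (median 115) in hippocampus, again without overlap. Its log2 fold change was -3.22 (SE 0.12, adjusted p 2.12e-10). The highest hippocampal library was 4N for both genes. In bulk tissue, fewer cells of a type and less RNA per cell cannot be told apart, for these genes and for those that follow.

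Desmoplakin (Dsp), a component of desmosomes, was at 1.01, 0.801, 1.24 and 0.983 CPM in prefrontal cortex and at 31.3 to 72.8 CPM (median 56.8) in hippocampus, a log2 fold change of -5.75 (SE 0.25, adjusted p 1.23e-09). Lactase (Lct), better known as the intestinal enzyme that splits milk sugar and a marker of granule cells, was at 1.28, 1.63, 0.806 and 1.13 CPM against 31.4 to 60.9 CPM (median 49.8), a log2 fold change of -5.31 (SE 0.23, adjusted p 1.18e-09). For both, 4N was again the highest library and 2N the lowest hippocampal library, and the groups did not overlap. The tryptophan-degrading enzyme Tdo2 (log2 fold change -3.28) and the transcription factor Glis3 (-2.24) completed the calls.

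Of the 18 dentate granule genes listed, all of which were tested, these 6 were called higher in hippocampus, where 3.37% of all tested genes were, and 0 higher in prefrontal cortex. The list's median log2 fold change was -1.07 against -0.02 over all tested genes. For 11 members every hippocampal library lay above the prefrontal range, and for 3 the reverse held, where 39.1% of all tested genes separated in one direction or the other. Several genes used as granule cell markers did not differ in that way. C1ql3, the paralogue of C1ql2, was at 102, 82.1, 74.5 and 112 CPM in prefrontal cortex and 90.7 to 136 CPM (median 105) in hippocampus. These ranges overlapped (log2 fold change -0.23, adjusted p 0.142), and C1ql3 shares 64.2% of its exonic bases with other annotated genes, which makes its counts uncertain. Prodynorphin (Pdyn), the precursor of dynorphin peptides, was higher in prefrontal cortex at 15.4, 27.4, 57.7 and 23.5 CPM against 9.91 to 14.98 CPM, without reaching a 4-fold difference (log2 fold change 1.46, adjusted p 0.000581).

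CA1 pyramidal markers were called higher in hippocampus in 5 of 10 genes (3.37% of all tested genes were), with 0 called in the other direction and a median log2 fold change of -1.775. The protease inhibitor Spink8 was at 0.559, 0.718, 0.523 and 0.590 CPM in prefrontal cortex and at 11.5 to 19.6 CPM (median 16.5) in hippocampus (log2 fold change -4.72, SE 0.19, adjusted p 6.99e-10). Fibcd1, a receptor for acetylated compounds, was at 20.8, 19.3, 20.6 and 24.7 CPM against 109 to 206 CPM (median 167), a log2 fold change of -2.92 (SE 0.17, adjusted p 1.6e-08). Both genes separated the tissues in every library. The Nodal antagonist Lefty1 (-3.64), the ciliary receptor Gpr161 (-2.55) and the proteoglycan decorin (Dcn, -2.40) were called as well; decorin is also made by meningeal fibroblasts. Wfs1, an endoplasmic reticulum protein often used to mark CA1, was at 104 to 170 CPM in prefrontal cortex and 85.3 to 186 CPM in hippocampus and did not separate them (log2 fold change 0.015, adjusted p 0.951).

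CA2 and CA3 markers gave few calls, in both directions. Over all tested genes 3.15% were called higher in prefrontal cortex and 3.37% higher in hippocampus. Of 10 CA2 genes, 0 were called higher in hippocampus and 1 higher in prefrontal cortex. That gene was Cacng5, an auxiliary subunit of AMPA receptors, at 88.1, 66.8, 110 and 78.3 CPM against 8.06 to 12.3 CPM (log2 fold change 3.09, SE 0.14, adjusted p 1.42e-09). Of 15 CA3 and mossy cell genes, 1 was called higher in hippocampus and 2 higher in prefrontal cortex. The first was the iodotyrosine deiodinase Iyd, at 0.0798, 0.221, 0.0654 and 0.123 CPM against 3.28 to 4.54 CPM (log2 fold change -5.02, adjusted p 1.04e-08). The other 2 were calretinin (Calb2, 2.25), a calcium-binding protein that also marks bulb and cortical interneurons, and cochlin (Coch, 2.04), whose call was lost without 1N or without 6N. The kainate receptor subunit Grik4, enriched in CA3, was at 24.4 CPM in prefrontal cortex and 77.1 CPM in hippocampus and stayed below a 4-fold difference (log2 fold change -1.66).

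Transcription factors known for the hippocampus mostly stood above their prefrontal level. Zbtb20, required for hippocampal development, was at 93.6, 95.3, 118 and 88.7 CPM in prefrontal cortex and 270 to 394 CPM (median 329) in hippocampus. The ranges were apart, and the difference of 3.32-fold was under the limit for a call (log2 fold change -1.73, adjusted p 5.62e-08). Of 16 tested hippocampal transcription factors, 3 were called higher in hippocampus (Lhx9, Prox1 and Nr3c2) and 1 higher in prefrontal cortex (Meis2). The shares over all tested genes were 3.37% and 3.15%. The list's median log2 fold change was -0.88. All hippocampal libraries lay above the prefrontal range for 11 members and below it for 1, where 39.1% of all tested genes separated either way. Lhx9, a LIM-homeodomain factor, was at 0.496 ± 0.297 CPM (SD, n = 4) in prefrontal cortex and 19.1 ± 2.95 CPM (SD, n = 6) in hippocampus. Neurod1 was listed at 0 in all 10 libraries and was not tested.

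The mineralocorticoid receptor Nr3c2, which binds corticosterone with high affinity and is known for its high hippocampal expression, was at 48.0, 46.3, 45.0 and 50.5 CPM in prefrontal cortex and 156 to 229 CPM (median 193) in hippocampus. Its log2 fold change of -2.03 (SE 0.12, adjusted p 2.99e-08) lay at the limit, and the call was lost without 6L, 1N, 3N or 6N (range -2.08 to -1.97). The glucocorticoid receptor Nr3c1, the lower-affinity partner, had overlapping ranges (93.7 CPM in prefrontal cortex and 85.2 CPM in hippocampus, log2 fold change 0.14). Nr3c2 was the single call among 20 steroid, thyroid and related nuclear receptors (3.37% of all tested genes were called higher in hippocampus). The log2 fold changes of these receptors ran from -2.03 to 1.58.

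**Figure D2:**
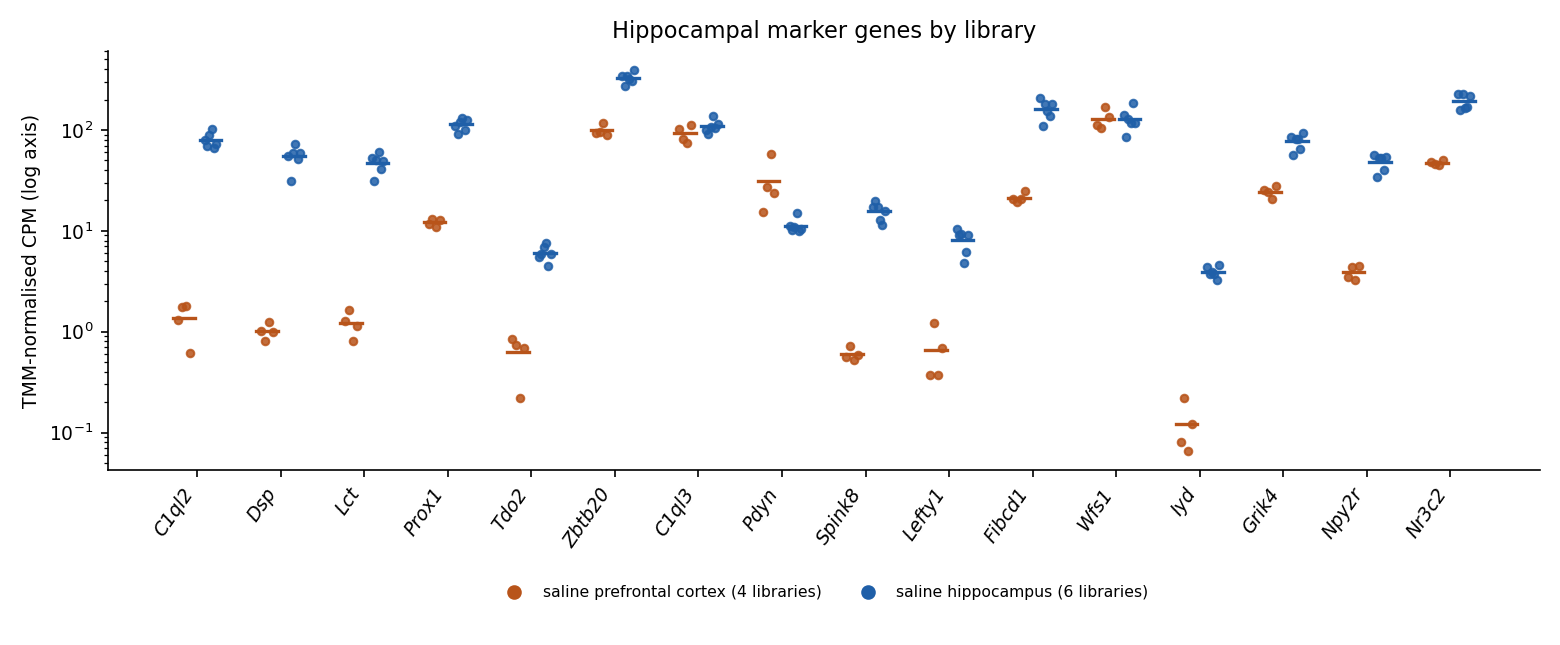
Levels of 16 hippocampal marker genes in each library (points, TMM-normalised CPM on a log axis), with prefrontal cortex in orange (4 libraries), hippocampus in blue (6 libraries) and the group means as bars. C1ql2, Dsp and Lct sit near 1 CPM in prefrontal cortex and above 30 CPM in hippocampus, whereas C1ql3 and Wfs1 overlap and Pdyn lies higher in prefrontal cortex.

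Upper-layer cortical markers were mostly above their hippocampal level in prefrontal cortex. Of 16 genes, all tested, 4 were called higher in prefrontal cortex (3.15% of all tested genes were) and 0 in hippocampus, the median log2 fold change was 1.31, and 11 lay wholly above the hippocampal range and 2 wholly below it (39.1% of all tested genes separated either way). The heparan sulfate sulfotransferase Hs3st2 was at 94.98, 82.5, 73.6 and 76.3 CPM against 9.36 to 14.9 CPM (median 13.2) in hippocampus, a log2 fold change of 2.68 (SE 0.11, adjusted p 9.13e-10). Stard8, a GTPase-activating protein, was at 55.4, 45.5, 58.3 and 50.8 CPM against 9.60 to 10.4 CPM (log2 fold change 2.40, SE 0.07, adjusted p 3.96e-11). Neither gene's ranges overlapped. The Wnt agonist Rspo1 (2.28) and otoferlin (Otof, 2.00), a calcium sensor for vesicle release, were also called, and the call of Otof was lost without 6L, 1N, 2N, 3N or 6N.

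Of the best-known upper-layer genes, Cux2 and Lamp5 stayed just under the limit. Cux2, a homeodomain factor of layers above layer V, was at 136, 104, 121 and 141 CPM in prefrontal cortex and 26.9 to 53.0 CPM (median 27.9) in hippocampus. The groups did not overlap (log2 fold change 1.92, adjusted p 1.41e-06), and the gene passed the limit without 3L or without 5N. The lysosome-associated protein Lamp5 had a log2 fold change of 1.93. Rorb, the nuclear receptor that marks the layer receiving thalamic input, was at 38.4 ± 2.98 CPM (SD, n = 4) against 32.9 ± 3.31 CPM (SD, n = 6), with overlapping ranges and a log2 fold change of 0.22.

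Deep-layer markers did not move together. Of 23 genes tested, 3 were called higher in prefrontal cortex (3.15% of all tested genes were) and 0 in hippocampus, and the median log2 fold change was 0.03. Syt6, a synaptotagmin of corticothalamic neurons at chr3:103575231-103645569, was at 95.7, 90.1, 154 and 95.3 CPM against 6.97 to 8.44 CPM in hippocampus, a 14.3-fold difference (log2 fold change 3.84, SE 0.14, adjusted p 2.2e-10). Every prefrontal library stood clear of the hippocampal ones, with 6L the highest. The forkhead factor Foxp2 was at 14.4, 22.4, 30.5 and 21.0 CPM against 1.73 to 4.81 CPM (log2 fold change 2.96), and the neurexin ligand Nxph4 at 16.4, 11.7, 16.9 and 13.3 CPM against 1.15 to 3.21 CPM (3.05). Tbr1, a T-box factor of layer VI, was higher by 2.22-fold (log2 fold change 1.15). Fezf2, which specifies subcerebral projection neurons, was at 31.4 CPM in prefrontal cortex and 50.9 CPM in hippocampus (log2 fold change -0.70, adjusted p 0.0012), and the ranges of Bcl11b, its partner, overlapped (-0.245, adjusted p 0.0813).

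Genes known from the olfactory bulb stood high in prefrontal cortex. Of the 15 genes with the largest prefrontal excess among those counted in all 10 libraries, a ranking made after values were seen, 7 were on the olfactory bulb list (Th, Doc2g, Tbx21, Eomes, Sp8, Shisa3 and Cdhr1). The list was itself chosen with earlier results of these data known, so this overlap is a description only. Of 10 olfactory bulb markers, 7 were called higher in prefrontal cortex (3.15% of all tested genes were) and 0 in hippocampus, and the median log2 fold change was 5.20. Tyrosine hydroxylase (Th), the first enzyme of dopamine synthesis and a marker of bulb periglomerular neurons, was at 81.8, 46.7, 82.7 and 73.3 CPM in prefrontal cortex and 0.863 to 1.18 CPM (median 0.984) in hippocampus. The difference was 71.5-fold without overlap (log2 fold change 6.16, SE 0.16, adjusted p 1.51e-11). Cdhr1, a cadherin-related protein of mitral and tufted cells at chr14:37077857-37098347, was at 223, 159, 265 and 231 CPM against 5.19 to 8.28 CPM (median 6.86), a 32.2-fold difference (log2 fold change 5.01, SE 0.15, adjusted p 4.27e-11). In both genes 3L was the lowest and 6L the highest prefrontal library.

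The other 5 called bulb genes were the T-box factors Tbx21 (13.3, 10.2, 19.0 and 13.1 CPM against 0.116 to 0.358 CPM) and Eomes (59.3, 41.3, 62.1 and 59.9 CPM against 0.229 to 1.98 CPM), the zinc-finger factor Sp8 (log2 fold change 5.20), Shisa3 (5.20) and Doc2g (6.12). Doc2g shares 63.5% of its exonic bases with other annotated genes, so its counts are uncertain. Reelin (Reln, 1.06) and neuromedin B (Nmb, 1.99, called without 1L, 8L or 3N) separated the groups without a call, and Lhx1 averaged 0.278 and 0.451 CPM. The list summed to 690, 496, 828 and 707 CPM in the prefrontal libraries and 66.3 to 123 CPM in the hippocampal ones. With 1L and 3L alone, the prefrontal libraries with agreeing labels, 7 of 10 genes were called.

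Further genes with the largest prefrontal excess included Trh, the precursor of thyrotropin-releasing hormone, at 37.0, 24.8, 31.6 and 36.8 CPM against 0.141 to 0.702 CPM (log2 fold change 6.49, SE 0.25, adjusted p 4.32e-10). Shisa8, an AMPA receptor regulator, was at 77.2, 46.5, 96.7 and 58.1 CPM against 0.969 to 2.19 CPM (5.58). S100a5, a calcium-binding protein of olfactory neurons, had 4801 counts in prefrontal cortex and 2 in hippocampus, a ratio of 5143 with an exact 95% interval of 1423 to 42480 that covers counting error only. Ms4a15 had 6236 and 3 counts, a ratio of 4453 (1523 to 21600). Kcnk15, Klhl30 and Ppm1j, at 6.42 to 10.2 CPM in prefrontal cortex and at most 0.113 CPM on average in hippocampus, completed the upper end. The fitted values of Ms4a15 (log2 fold change 11.73) and Klhl30 (7.23) were 12.59 and 8.05 without 5N. Further genes, picked after their values were seen because they were high, are given as values only. Meis2 was at 524, 486, 613 and 526.1 CPM against 49.9 to 74.8 CPM (log2 fold change 3.23), Pbx3 had a log2 fold change of 3.54, Sp9 one of 2.76, Dlx2 one of 2.83, secretagogin (Scgn) one of 3.835 and the stem cell receptor Lgr5 one of 4.28.

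The start regions of Th and somatostatin (Sst) are shown, and both carry the same element. The 250 bases before each start, from RefSeq on GRCm38.p6, are chr7:142899996-142900245 for Th and chr16:23890845-23891094 for Sst, both on the minus strand, and capitals mark the palindromic cyclic AMP response element TGACGTCA.
Th: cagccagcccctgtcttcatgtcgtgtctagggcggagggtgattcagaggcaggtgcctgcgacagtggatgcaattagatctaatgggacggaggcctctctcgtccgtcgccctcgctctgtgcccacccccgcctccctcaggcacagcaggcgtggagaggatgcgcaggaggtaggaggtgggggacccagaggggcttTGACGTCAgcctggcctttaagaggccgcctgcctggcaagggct
Sst: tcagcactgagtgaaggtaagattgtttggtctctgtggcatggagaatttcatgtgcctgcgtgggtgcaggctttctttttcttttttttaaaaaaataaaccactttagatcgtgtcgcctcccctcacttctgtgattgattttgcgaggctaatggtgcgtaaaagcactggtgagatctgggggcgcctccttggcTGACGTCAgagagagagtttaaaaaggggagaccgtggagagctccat
The element starts 45 bases before the start of Th and 48 bases before that of Sst. It occurs, on either strand, in the 250 bases before the start in 508 of 32851 entries of that table (1.55%). Sst, a peptide of cortical and hippocampal interneurons, was at 179, 184, 153 and 175 CPM in prefrontal cortex and 185 to 232 CPM (median 206) in hippocampus, a log2 fold change of -0.26 (SE 0.09, adjusted p 0.0215). Whether the element bears on the level of either gene was not tested. The match is a description of these letters and not evidence of binding.

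**Figure D3:**
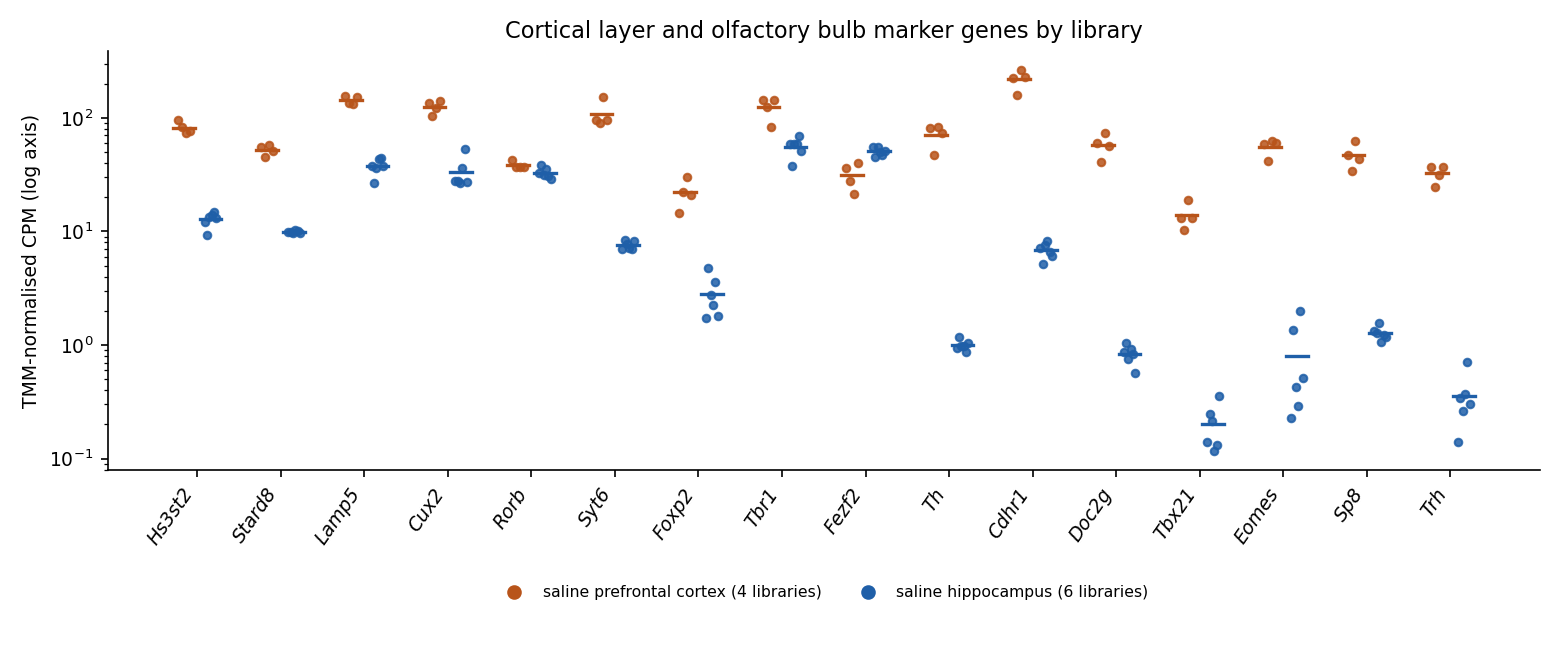
Levels of 16 cortical layer and olfactory bulb genes in each library (points, TMM-normalised CPM on a log axis), with prefrontal cortex in orange (4 libraries), hippocampus in blue (6 libraries) and the group means as bars. Rorb and Fezf2 lie close together in the tissues, Cux2 and Lamp5 differ by just under 4-fold, and Th to Trh on the right differ by over 30-fold.

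Markers of striatal projection neurons, the medium spiny neurons below the frontal cortex, were higher in prefrontal cortex and varied strongly among its libraries. Of 16 genes tested, 8 were called higher in prefrontal cortex (3.15% of all tested genes were) and 0 in hippocampus, with a median log2 fold change of 2.27. Proenkephalin (Penk), the precursor of enkephalin opioid peptides, was at 151, 274, 486 and 169 CPM against 23.9 to 40.4 CPM (median 29.0) in hippocampus (log2 fold change 3.17, SE 0.28, adjusted p 8.97e-07). The adenosine receptor Adora2a, a marker of indirect-pathway neurons, was at 6.04, 31.2, 60.0 and 14.9 CPM against 1.23 to 2.57 CPM (4.06, SE 0.48, adjusted p 1.34e-05). In both genes 6L was highest, 3L second and 1L lowest.

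The dopamine receptors followed the same order. Drd1 was at 9.26, 36.4, 57.4 and 16.7 CPM against 3.08 to 5.96 CPM (log2 fold change 2.77), and Drd2 at 3.19, 21.8, 40.3 and 9.17 CPM against 1.92 to 3.31 CPM (2.75), with 1L inside the hippocampal range. The sodium channel subunit Scn4b (2.74), Gpr6 (3.04) and the homeobox factor Six3 (2.55) were among the other calls, the last with overlapping ranges and not without 6L, 1N or 6N. The summed level of the list was 802, 1601, 2539 and 1060 CPM in the prefrontal libraries and 592 to 631 CPM in hippocampus. Without 3L and 6L, which had the highest sums, 4 of 16 genes were called, and the log2 fold changes were 2.42 for Penk, 1.57 for Drd1 and 1.16 for Drd2. With 1L and 3L alone 7 were called. Leaving out 6L gave 3.38 for Adora2a, 2.05 for Drd2, 2.38 for Gpr6 and 1.62 for Six3, and leaving out 5N gave 3.20 for Six3.

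Choroid plexus genes were called higher in hippocampus in 14 of 16 cases (3.37% of all tested genes were), with a median log2 fold change of -4.50. Their ranges were apart in 10, where 39.1% of all tested genes separated either way. Transthyretin (Ttr), the thyroid hormone carrier that choroid plexus makes in bulk, was at 0.984, 1.11, 0.915 and 0.639 CPM in prefrontal cortex. In hippocampus it was at 15.7, 1288, 60.7, 37.3, 3799 and 228 CPM in libraries 1N to 6N, so that every hippocampal library lay above every prefrontal one and 5N stood far above the rest. The log2 fold change was -9.96 (SE 1.91, adjusted p 0.000734), -8.465 without 5N and -6.56 without 2N and 5N. Klotho (Kl), a co-receptor for fibroblast growth factors, was at 1.97 to 2.90 CPM in prefrontal cortex and 19.1 to 162 CPM in hippocampus (log2 fold change -4.49, adjusted p 0.000102). The folate receptor Folr1 (-6.07), the bicarbonate transporter Slc4a5 (-6.04) and the secreted inhibitor Sostdc1 (-4.51) were among the other calls. Without 5N these values were -4.74, -4.51 and -3.67, and that of Klotho was -3.76. Clic6 was called without 1N, 3N or 4N, and Aqp1 overlapped, at 7.43 to 13.2 CPM in prefrontal cortex and 0.423 to 24.7 CPM in hippocampus.

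The number of choroid plexus calls depended on a few libraries. The summed level was 20.04 to 26.95 CPM in prefrontal cortex and 56.6, 1508, 99.6, 68.8, 4399 and 310 CPM in 1N to 6N. Without 2N and 5N, 8 of 15 tested genes were called higher in hippocampus, and limma-voom called 3 of 16; each of these fits also called 1 gene higher in prefrontal cortex, Aqp1. With 1L and 3L alone 5 were called, and without 3L and 6L 4. Of 10 ependymal genes, which mark the ciliated lining of the ventricles, 3 were called higher in hippocampus (Ccdc153, Tmem212 and Ak7, log2 fold changes -3.75, -4.32 and -3.62) and 0 in prefrontal cortex. Meningeal and fibroblast genes gave 1 call in each direction among 12 tested, Islr in prefrontal cortex (2.19) and decorin in hippocampus. Thalamic and habenular markers gave 1 call (Calb2) among 12, and claustral and amygdalar markers 1 (the kappa opioid receptor Oprk1, 2.16, lost without 3L or without 6L) among 10. For each of these lists, the shares over all tested genes were 3.15% higher in prefrontal cortex and 3.37% higher in hippocampus. Whether neighbouring tissue had a part in the differences between the dissected regions was not tested.

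**Figure D4:**
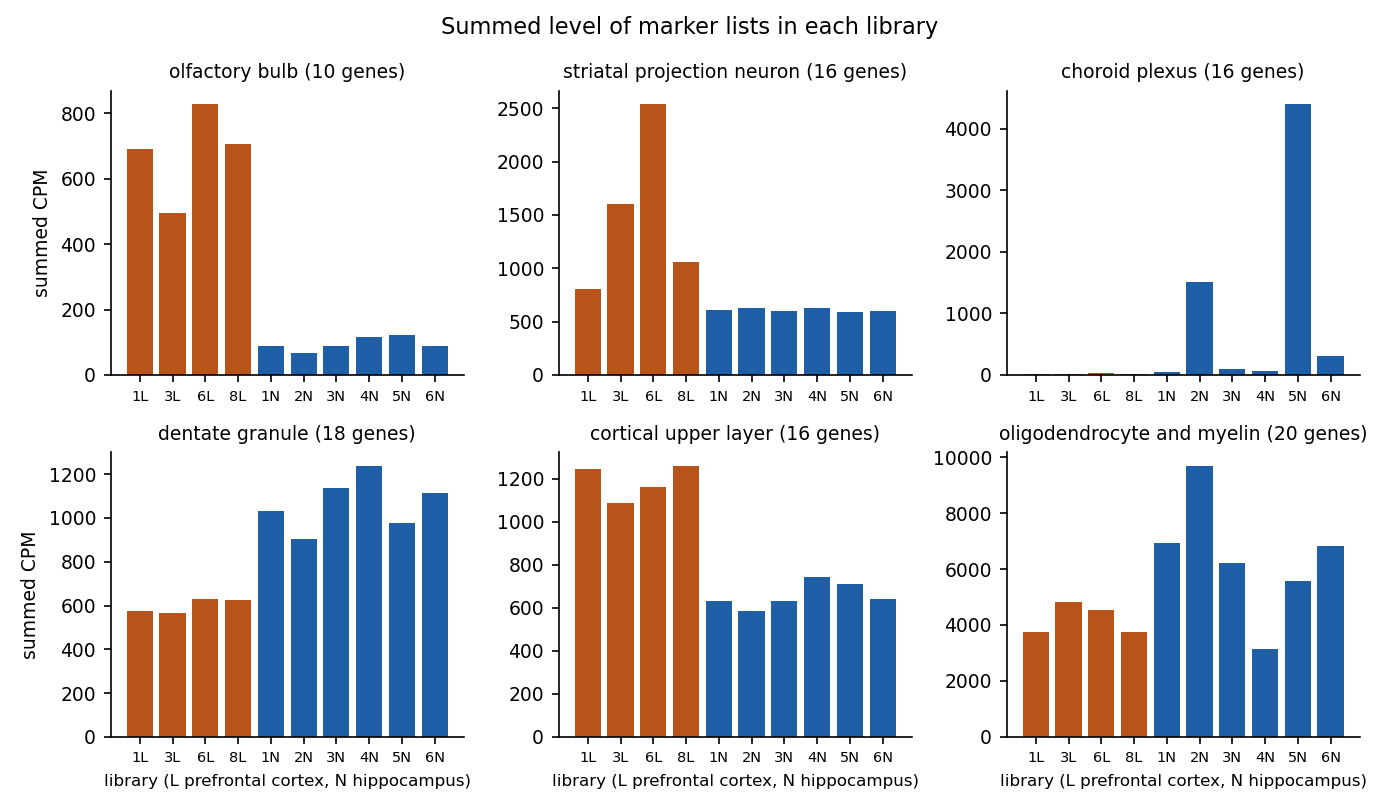
Summed TMM-normalised CPM of 6 marker lists in each library, with prefrontal libraries in orange (1L, 3L, 6L and 8L) and hippocampal libraries in blue (1N to 6N); each panel has its own linear axis from 0. The olfactory bulb sum is high in all 4 prefrontal libraries, the striatal sum ranges from 802 to 2539 CPM among them, and the choroid plexus sum is highest in 5N (4399 CPM) and 2N (1508 CPM).

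Inhibitory neurons make GABA with the enzymes Gad1 and Gad2 and load it into vesicles with Slc32a1. Gad1 was at 854 CPM in prefrontal cortex and 309 CPM in hippocampus (log2 fold change 1.47), Gad2 at 291 and 152 CPM (0.94) and Slc32a1 at 212 and 74.9 CPM (1.504), each without overlap and below the limit. Of 24 interneuron genes tested, 5 were called higher in prefrontal cortex, namely the homeobox factors Dlx1 (2.64), Dlx5 (2.67) and Dlx6 (2.08), Calb2 (2.25) and corticotropin-releasing hormone (Crh, 2.06). The calls of Dlx6 and Crh were lost without 6L, and Prox1 was the 1 call in the other direction. Over all tested genes 3.15% were called higher in prefrontal cortex and 3.37% higher in hippocampus. Parvalbumin (Pvalb, -0.55) and Lhx6 (-0.47), both of interneurons from the medial ganglionic eminence, were at 22.2 and 32.5 CPM and at 16.4 and 22.6 CPM, hippocampus second. The 15 tested genes of adult neurogenesis gave 3 calls, all in prefrontal cortex: Eomes, Calb2 and Igfbpl1 (2.24, lost without 6L). Doublecortin (Dcx), which marks migrating young neurons, was at 59.2, 51.1, 80.0 and 54.9 CPM against 13.6 to 19.8 CPM (log2 fold change 1.90).

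Among 30 tested neuropeptide precursors, 8 were called higher in prefrontal cortex and 2 in hippocampus (3.15% and 3.37% of all tested genes were), with a median log2 fold change of 0.91. Beside Trh and Penk, the prefrontal calls were natriuretic peptide A (Nppa, 6.50, with 61.5% of its exonic bases shared with other genes), galanin (Gal, 2.42), cerebellin 2 (Cbln2, 2.20), Crh (2.06), the cocaine- and amphetamine-regulated transcript Cartpt (2.025) and the pituitary adenylate cyclase-activating peptide Adcyap1 (2.01). Gastrin-releasing peptide (Grp, -2.12) and vasopressin (Avp, -2.20) were the hippocampal calls, Avp at under 1 CPM on average in both tissues and with overlapping ranges. The calls of Crh, Cartpt and Grp were lost without 6L, that of Cartpt also without 5N, that of Adcyap1 without 1L, 1N, 2N or 5N, and that of Avp without 3L, 8L or 2N (-1.555 without 2N). The list summed to 1825 to 2521 CPM in prefrontal cortex and 988 to 1281 CPM in hippocampus. Vasoactive intestinal peptide (Vip) had a log2 fold change of 1.505 and neuropeptide Y (Npy) one of 0.77, both with ranges apart, and cholecystokinin (Cck) one of 0.30 with overlap.

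Of 31 tested peptide receptors, 4 were called higher in prefrontal cortex and 2 in hippocampus, where 3.15% and 3.37% of all tested genes were. The neuropeptide Y receptor Npy2r, a presynaptic receptor of hippocampal terminals, was at 3.49, 4.34, 3.23 and 4.52 CPM against 33.9 to 56.2 CPM (median 53.1), a log2 fold change of -3.64 (SE 0.17, adjusted p 2.85e-09). The VIP receptor Vipr2 was at 23.2, 17.7, 29.9 and 23.0 CPM against 0.620 to 2.72 CPM (median 0.914), a log2 fold change of 4.37 (SE 0.33, adjusted p 2.17e-07). Neither pair of ranges overlapped. The cholecystokinin receptor Cckbr was at 81.6, 67.5, 62.5 and 74.98 CPM against 6.28 to 17.2 CPM (2.81), and the substance P receptor Tacr1 had a log2 fold change of 2.89. The vasopressin receptor Avpr1b was listed at 0 in all prefrontal libraries and averaged 0.387 CPM in hippocampus.

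Receptors for dopamine, noradrenaline and histamine lay above the hippocampal range in prefrontal cortex for 11 of 16 tested and below it for 1, where 39.1% of all tested genes separated either way. Of these 16, 4 were called there (Drd1, Drd2, Drd4 and the adrenergic receptor Adra1b at 2.36), 1 in hippocampus (Drd5, -2.23, with 48.6% of its exonic bases shared with other genes), and the median log2 fold change was 1.06. Without 3L and 6L, 1 was called in each direction. Drd4 was low in both tissues, averaging 0.393 CPM in prefrontal cortex and 0.0832 CPM in hippocampus. Serotonin receptors gave 1 call in each direction among 12. For both families, the shares called over all tested genes were 3.15% in prefrontal cortex and 3.37% in hippocampus. Htr4, a receptor that raises cyclic AMP, was at 0.692, 1.44, 3.44 and 1.80 CPM against 14.4 to 19.8 CPM (median 18.6), a log2 fold change of -3.26 (SE 0.30, adjusted p 1.43e-06). Htr1d was at 2.74, 3.42, 4.86 and 2.61 CPM against 0.0490 to 0.424 CPM (3.66). The groups were apart for both, in opposite directions. Htr2a, the target of classical psychedelics, was at 44.9 and 16.5 CPM (1.45), and Htr1a at 15.3 and 42.9 CPM (-1.49), both below the limit.

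Acetylcholine receptors are of interest because nicotine was given to other animals of the study. Of 17 tested, 5 were called higher in prefrontal cortex, the nicotinic subunits Chrna10 (6.69, with 39.0% of its exonic bases shared with other genes), Chrnb4 (3.33), Chrna3 (3.005) and Chrna2 (2.64) and the muscarinic receptor Chrm2 (2.27), and 2 in hippocampus, Chrm5 (-2.81) and Chrna1 (-2.51). Over all tested genes 3.15% and 3.37% were called. The nicotinic subunits called were all below 5 CPM on average in both tissues, and without 5N Chrna10 had a log2 fold change of 8.70 and Chrnb4 one of 4.08. The subunits that form the main brain receptors were not called: Chrna4 was at 52.5 and 26.6 CPM (log2 fold change 0.98), Chrnb2 at 69.3 and 58.9 CPM (0.235) and Chrna7 at 9.04 and 22.5 CPM (-1.32).

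Receptors for glutamate and GABA were called about as often as all tested genes (3.15% and 3.37%). Of 24 glutamate receptor genes, 1 was called, the presynaptic receptor Grm4 (91.2 against 15.3 CPM, log2 fold change 2.58), and the AMPA subunit Gria1 was at 625.3 and 1251 CPM (-1.0). Of 19 GABA receptor genes, 1 was called, Gabra6, with 1 count in prefrontal cortex and 186 in hippocampus, a ratio of 86.8 (exact 95% interval 15.4 to 3447, counting error only). Without 2N and 5N it did not pass the filter on low counts, and glmTreat against a 4-fold change did not call it. Gabra5, an extrasynaptic subunit abundant in hippocampus, had a log2 fold change of -1.02. Of 36 voltage-gated potassium channel genes, 4 were called higher in prefrontal cortex (Kcna5 at 3.25, Kcnh5 at 2.51, Kcnh4 at 2.45 and the silent subunit Kcnf1 at 2.17) and 0 in hippocampus. Kcnf1 was at 299, 255, 339 and 277 CPM against 42.3 to 79.3 CPM. Ephrins and their receptors, which guide axons, gave 0 calls among 21 by edgeR, DESeq2 or limma-voom and 16 at an unadjusted p below 0.05, with log2 fold changes from -1.91 (Epha6) to 1.34 (Epha2); 8 of the 21 lay wholly above the hippocampal range and 6 wholly below it (39.1% of all tested genes separated either way). C1q-like and cerebellin genes gave Cbln2 and C1ql2, 1 in each direction, among 7.

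Wnt pathway genes gave 4 prefrontal calls among 31 tested (Dkkl1 at 3.70, Rspo1 at 2.28, Wnt10a at 2.16 and Sfrp1 at 2.07, the last lost without 1N, 3N or 4N) and 1 in hippocampus, Wnt8b, which was listed at 0 in all prefrontal libraries and averaged 0.269 CPM in hippocampus. Over all tested genes the shares called were 3.15% and 3.37%. Of 23 immediate early genes, 1 was called, Egr2 (2.05), whose call was lost without 6L (1.32), 1N, 2N or 6N. Fos was at 26.0, 28.0, 106 and 40.7 CPM in prefrontal cortex and 5.77 to 28.2 CPM in hippocampus, with overlap. The list summed to 1572, 1489, 3270 and 1725 CPM in prefrontal cortex and 982 to 1633 CPM in hippocampus. Of 8 tested acute phase genes, lipocalin 2 (Lcn2), an iron-scavenging protein of inflammation, was called at 1.44, 0.939, 0.697 and 13.99 CPM against 0.0293 to 0.323 CPM (log2 fold change 4.91, SE 0.89). The protease inhibitor Timp1 was called too, at under 1 CPM in both tissues and not without 1L, 8L or 1N. Library 8L, 1 of the 2 whose labels named lipopolysaccharide, held the high Lcn2 value, and without 8L the log2 fold change was 2.835.

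Glial and vascular markers gave 0 calls in either direction by edgeR, DESeq2 or limma-voom. This held for 20 oligodendrocyte and myelin genes (median log2 fold change -0.54), 10 oligodendrocyte precursor genes (0.18), 20 astrocyte genes (-0.18), 18 microglia genes (-0.01) and 20 endothelial and mural genes (0.41). At an unadjusted p below 0.05, whatever the size, the counts in the same order were 13, 7, 13, 8 and 15. Glial fibrillary acidic protein (Gfap), the astrocyte filament, was at 196 to 213 CPM in prefrontal cortex and 334 to 646 CPM in hippocampus (-1.01), and myelin basic protein (Mbp) at 1396 to 2080 and 1318 to 4468 CPM (-0.70). Sall1, a factor known in microglia, was the outlying member of its list at 97.2 and 26.7 CPM (1.86). The kinases Akt1 and Akt2 were at 190 and 162 CPM (0.23) and at 104.5 and 83.1 CPM (0.33).

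**Figure D5:**
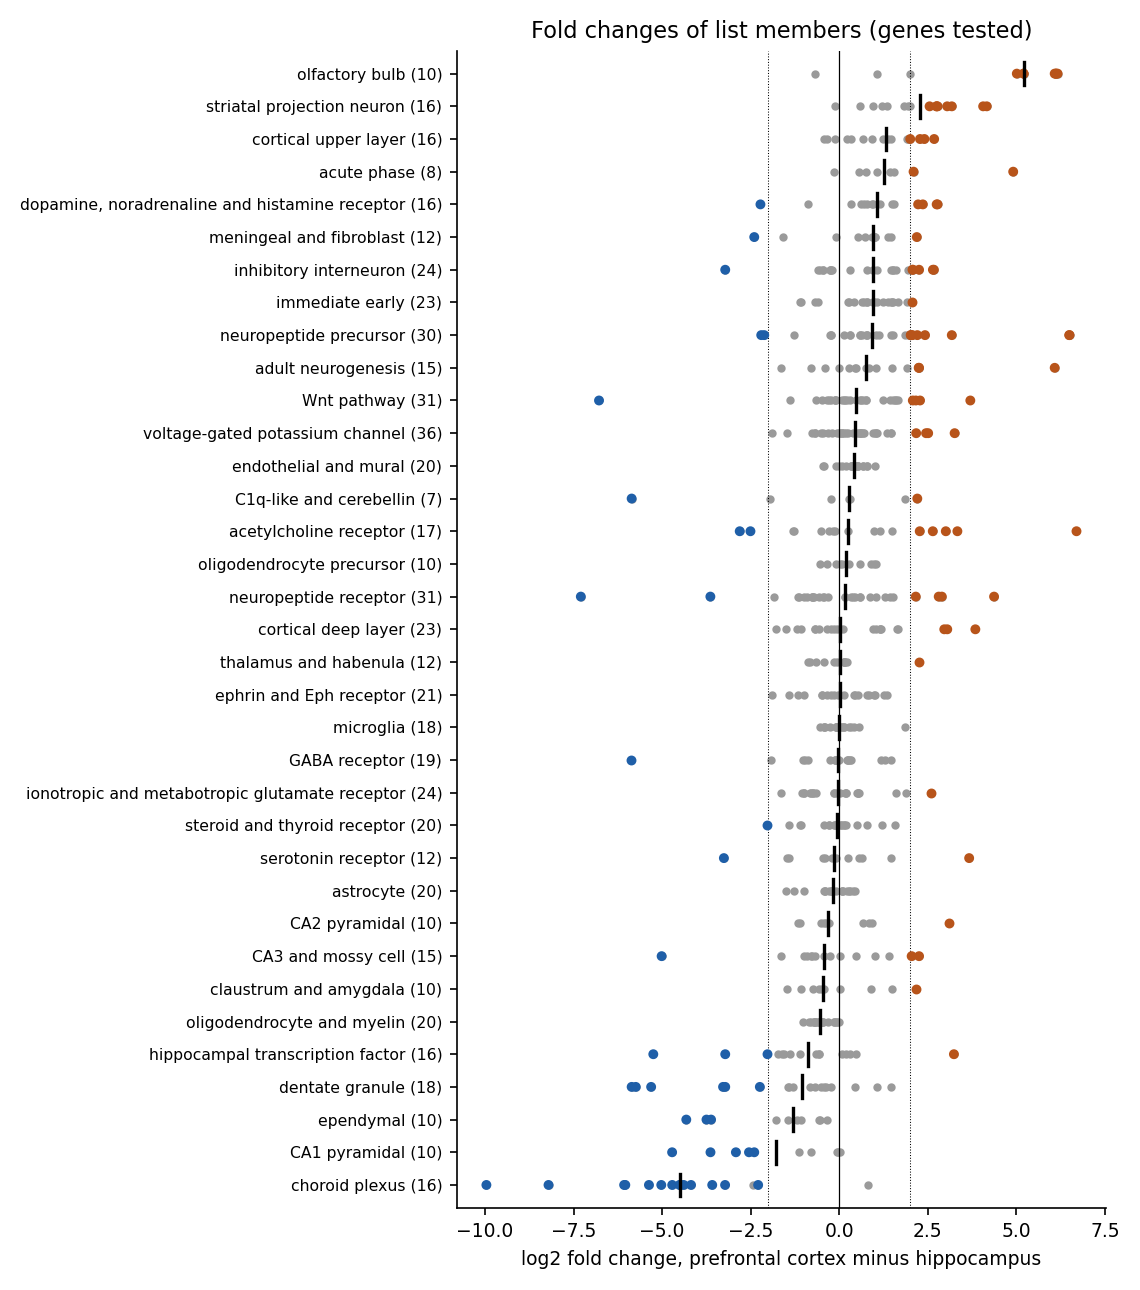
Log2 fold change, prefrontal cortex minus hippocampus, of each tested member of 35 gene lists (points, with the number tested in parentheses), the list medians (black bars) and the 4-fold limits (dotted lines). Called members are orange (higher in prefrontal cortex) or blue (higher in hippocampus); the olfactory bulb and striatal lists lie to the right, the choroid plexus, CA1 and dentate lists to the left, and the glial lists near 0.

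Among genes counted in all 10 libraries, the 15 with the largest hippocampal excess, chosen after their values were seen, held 7 genes of the choroid plexus list (Ttr, Folr1, Slc4a5, Cldn2, Sostdc1, Kl and F5). That list too was chosen with earlier results of these data known, so the overlap is a description only. Without 5N, Cldn2 had a log2 fold change of -3.07 and F5 one of -3.03, where all libraries gave -4.72 and -4.39. Among the others were C1ql2, Dsp, Lct, Lhx9, Spink8, the keratin Krt2 (-4.91) and Fdps, an enzyme of isoprenoid synthesis next to Rusc1 on chromosome 3 (52 counts in prefrontal cortex and 15436 in hippocampus). Others named after their values were seen were the calcium-binding protein Cabp7, at 15.8, 18.9, 18.5 and 15.96 CPM against 192 to 294 CPM (-3.87), the plakophilin Pkp2 (-3.35), a desmosome protein like desmoplakin, and the cytokine Il16 (-3.59). Mitochondrially encoded transcripts made up 3.84% to 6.10% of prefrontal and 6.03% to 9.34% of hippocampal counts. Of 13 tested, 3 were called higher in prefrontal cortex, where 3.15% of all tested genes were. These were mt-Nd4l, mt-Co2 and mt-Atp6 (log2 fold changes 2.54, 2.22 and 2.20). Another 8 had log2 fold changes between -0.86 and -0.43, and the other 2, mt-Co3 and mt-Atp8, 1.70 and 1.73.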

How the data were processed

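Each sample's values are whole-number read counts per gene, which the authors deposited in one table per tissue. Per the submitters' processing notes, fastp, STAR, featureCounts, DESeq2 and the mm10 genome were used, with no versions named. For the gene annotation and the strandedness of counting: not given in the sources used here. Per the labels' protocols, RNA was extracted with TRIzol and libraries were poly(A)-selected. Samples were grouped by the column names.

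The tables were joined on gene symbols that occurred once in each, after 51884 of 57180 Ensembl identifiers were matched to GENCODE vM21 names (49949 genes, 97.42% to 98.62% of each library's counts). Counts were tested with edgeR 4.0.16 (R 4.3.3, filterByExpr, TMM, glmQLFit and glmQLFTest, Benjamini-Hochberg adjustment). The code was checked on simulated counts with the same spread setting for every gene and no batch or table effect. That check therefore cannot speak to batch, table or single outlying libraries in the real data. A call needed an adjusted p under 0.05 and a 4-fold difference. Library pairs differed beyond sampling noise. Ratios with 1 to 3 counts carry exact 95% intervals for counting error. Each SE was derived from the edgeR test, as the absolute log2 fold change divided by the square root of the F statistic. It is therefore approximate. At these depths the median half-width of a gene's 95% interval, a normal approximation from these SEs, was 0.23 on the log2 scale.

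Named genes were the 15 called genes with the largest change in each direction (at least 5 CPM on average in the higher group, no overlap, an established symbol), up to 6 members with the largest change in each list with any others a sentence needed, and a set fixed by name. A second ranking, of genes counted in all 10 libraries, and further genes marked as such in the text were chosen after values were seen. Members and lists were chosen with earlier results of these data known. Alternatives covered DESeq2 1.42.0, limma 3.58.1 (voom), other scalings, filters, size limits and left-out libraries. Promoters come from RefSeq, GRCm38.p6. Libraries whose count columns named a treatment were not used. A few items are not reported here.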

Additional observations from a re-analysis of the deposited data

Results flagged for a closer look

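In 156 groups of values (38 genes and 40 gene lists, each in the 4 prefrontal and the 6 hippocampal libraries) a single library was set apart from the rest of its group by a wide gap in 23 cases, where chance alone gives such a gap in about 1 group of 20. The groups share libraries and some members, so the number of cases cannot be judged against that rate. No explanation was tested.

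Hippocampal library 2N stood lowest for the summed level of the cortical deep layer list (1056 CPM), the claustrum and amygdala list (664.6 CPM), the acetylcholine receptors (306.6 CPM), the glutamate receptors (3771 CPM), the GABA receptors (2349 CPM) and the voltage-gated potassium channels (2140 CPM). The same library stood highest for the microglia list (878.6 CPM), the acute phase list (21.81 CPM), Gfap (646.1 CPM) and Vipr2 (2.719 CPM). Its summed myelin level was also the highest, at 9690 CPM.

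Hippocampal library 5N stood highest for the choroid plexus list (4399 CPM), Ttr (3799 CPM), Kl (162.2 CPM), the endothelial and mural list (559.4 CPM), Cux2 (52.99 CPM) and Meis2 (74.79 CPM).

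Among the prefrontal libraries, 6L stood highest for the neuropeptide precursors (2521 CPM), the immediate early genes (3270 CPM), the oligodendrocyte precursor list (326.1 CPM) and Syt6 (153.8 CPM). Library 3L stood lowest for the thalamus and habenula list (380.4 CPM) and Eomes (41.34 CPM). Library 8L stood highest for Lcn2 (13.99 CPM).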

How the results depend on the processing

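Tissue, batch and count table coincided, so no setting could separate them. Counts of genes higher in prefrontal cortex and in hippocampus moved from 579 and 620 to 1000 and 949 with DESeq2 (which left 5679 adjusted p-values missing), 315 and 242 with glmTreat against a 4-fold change, 1155 and 1014 without a filter on low counts, 322 and 308 with at least 1 CPM in 4 libraries, 314 and 336 among protein-coding genes, 1413 and 1834 at 2-fold and 303 and 291 at 8-fold. DESeq2 was run on counts without the main filter on low counts, so its totals differ in filter as well as in method. It gave the same call for 1191 of the 1199 called genes. Leaving out single libraries gave 551 to 616 and 550 to 712. The other settings stayed within 1.5 times, among them limma-voom (604 and 644), library totals (578 and 618), no gene listed at 0 in one table (471 and 532) and, chosen after seeing the data, genes sharing at most 10% of their exons (506 and 478), no 2N and 5N (623 and 499) and no 3L and 6L (637 and 734). No named gene that was called reversed its direction under the settings run. Of the 142 named genes that were called, 40 lost the call with glmTreat, 10 with limma-voom, 18 without 3L and 6L, 13 with 1L and 3L as the only prefrontal libraries and up to 8 without a single library. No paired analysis was possible because no label names a prefrontal and a hippocampal library as coming from the same animal, and the tissues formed different batches. Low counts limit several calls, among them Gabra6, Avp, Avpr1b, Drd4, Timp1 and Wnt8b, whose levels were near or below 1 CPM in both tissues.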
